A study of Enchytraeus crypticus with 30 samples.

Results

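The comparison described here is that of *Enchytraeus crypticus* worms kept for 7 days in soil with nickel nanoparticles (Ni-NPs) at the EC20, the concentration that lowers reproduction by 20%, with worms kept for 7 days in the same soil without added nickel. It was chosen by the condition in the array labels, and holds 3 arrays of Ni-NPs EC20 and 3 control arrays, 6 of the 30 arrays of the series. The soil of all groups was the natural standard soil LUFA 2.2, and no food was given during exposure. The RNA of an array came from the whole bodies of 20 pooled adults with a clitellum, the swollen band that makes the cocoons. The other groups that enter below are Ni-NPs EC50 and nickel nitrate (NiNO3) EC20 at day 7, Ni-NPs EC20 and its own control at day 3, and, for single probes, the remaining treatments of the 10 conditions. The EC20 is set for each form by its effect on reproduction, so the amount of nickel in the soil was not the same for particles and salt.

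Enchytraeids are small white relatives of the earthworms that feed on decaying matter in soil and are a standard animal in soil toxicology. A nickel salt gives dissolved nickel ions to the soil water at once, whereas metal particles can release ions slowly and can also be taken in with the soil. In animals, metals such as nickel are known to call up metal-binding proteins, chaperones that refold proteins, and enzymes against oxidative stress. The probes of this array carry the name of the sequence they were designed on, either an assembled contig or a single sequencing read (names that start with GYUW2K4). They are given by those names, and no function is assigned to them here.

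The array holds 43750 gene probes. Of these, 24653 (56.3%) had a signal that was positive and significant on all 30 arrays and were analysed, 12551 named for a contig and 12102 for a single read. On all 6 arrays of the comparison 19301 of them were well above background, and none was saturated. The level of a probe is its log2 processed signal minus the median of all analysed probes on that array, so that a level of 0 is the middle of the array. The share of gene probes well above background was between 52.0% and 55.8% in the controls. In the treated arrays it was 55.4%, 68.9% and 53.7% for replicates 1, 2 and 3, with no difference between the groups detectable in an exact permutation test (two-sided p = 0.5, where 0.1 is the smallest that 3 arrays against 3 allow). The 3 control arrays and treated replicate 1 were scanned on the first scan day of the series, treated replicates 2 and 3 on the second, and no slide held arrays of both groups. Before scaling, the array median relative to the spike-in transcripts was 0.52 higher on the log2 scale in the treated arrays (exact permutation test, p = 0.2). All differences below are relative to the array median. In pools of whole animals, fewer cells of a type and less RNA per cell cannot be told apart.

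At day 7, 3 probes differed between Ni-NPs EC20 and the control. In a limma fit to all 30 arrays with Benjamini-Hochberg adjustment over all analysed probes, contig24978 and GYUW2K402JE6WU were higher and contig21200 was lower, all with an adjusted p of 0.0448. They are 0.0122% of the probes tested, 0.00811% higher and 0.00406% lower. At an unadjusted p under 0.05 there were 1352 probes (5.48%), 933 higher (3.78%) and 419 lower (1.7%). This split moved with the scaling: 69.0% of these probes were higher, compared with 62.1% after Quantile normalization, 60.7% with the 75th percentile as scale, 85.7% after MedianCD and 87.4% after SVCD, the study's methods that estimate the array offsets from probes found not to vary, and 99.8% when the arrays were scaled to the spike-in transcripts. The 3 treated arrays lay entirely on one side of the 3 control arrays in 1651 probes (6.7%), above in 1082 (4.39%) and below in 569 (2.31%). For arrays that do not differ by group, 3 against 3 separate in this way with a probability of 0.1. An unadjusted p under 0.05 has a probability of 0.05 there. The counts are thus given as a description. A difference of at least 1 on the log2 scale was found in 622 probes (2.52%), and in 191 of these (0.775% of all) the arrays of the groups did not overlap. The middle 90% of all log2 differences ran from -0.60 to 0.62, around a median of -0.0021. The standard error of a difference was 0.31 in the median probe, so that its 95% interval reached 0.65 to each side.

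**Figure D1:**
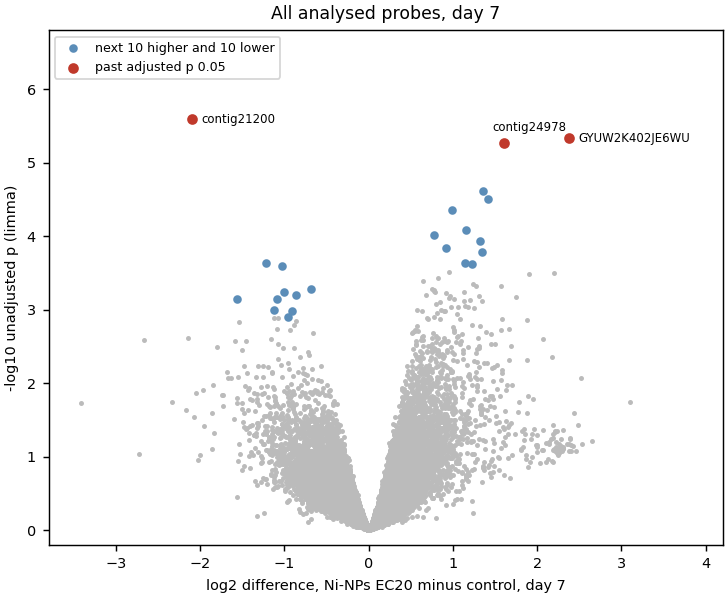
Each point is 1 of the 24653 analysed probes; the x axis is the log2 difference of Ni-NPs EC20 from the control at day 7 and the y axis is -log10 of the unadjusted limma p. The 3 red probes passed an adjusted p of 0.05, the 20 blue ones are those of next lowest p that were well above background without overlap, and a group of probes near a difference of 2 stands at high p.

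Contig21200 had levels of 2.76, 2.32 and 2.25 in the control arrays of day 7. In Ni-NPs EC20 the levels were 0.10, 0.40 and 0.54. All 3 treated arrays were thus below all 3 controls, with a wide gap between the groups. The mean was 2.44 ± 0.27 (SD, n = 3) in the control and 0.35 ± 0.22 (SD, n = 3) in the treated arrays, a 4.27-fold lower level. The log2 difference was -2.09 (SE 0.34, 95% interval -2.80 to -1.39).

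GYUW2K402JE6WU had levels of -0.46, -0.72 and -1.56 in the 3 treated arrays and was well above background in each. In the controls its measured levels were -2.74, -3.58 and -3.55, and none of them was well above background. The controls therefore give only a bound on the group means, which was 3.52-fold higher in Ni-NPs EC20. The bound sets the mean of the treated arrays against the lowest signal that counts as well above background on each control array, or the measured signal of the probe where that is higher. It makes no allowance for the spread of the arrays. The measured log2 difference was 2.38 (SE 0.40, 95% interval 1.55 to 3.21). The lower end of this interval was below the bound, which was 1.82 on the log2 scale. An alternative added after the data were seen used normexp in place of the scanner software's background correction and added 50 to every signal. The measured difference was then only 0.45 (adjusted p = 0.99995). The treated signals before scaling were 43.0, 38.1 and 24.9, so a constant of 50 by itself shrinks the log2 difference. How much of the drop came from the constant and how much from the correction was not tested.

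Contig24978 had levels of 0.74, 0.87 and 1.58 in the treated arrays. The control arrays were at -0.88, -0.58 and -0.15, all lower than the lowest treated array. The means were 1.06 ± 0.45 and -0.54 ± 0.37 (SD, n = 3 each), a 3.03-fold higher level in Ni-NPs EC20, with a log2 difference of 1.60 (SE 0.27, 95% interval 1.04 to 2.17). All 3 calls stood close to the threshold, and each of them was lost when any 1 of the 6 arrays was left out. Without 1 array, the adjusted p ran from 0.0679 to 0.492 for contig21200, from 0.0599 to 0.397 for GYUW2K402JE6WU and from 0.0679 to 0.492 for contig24978, while the differences kept their sign. All 3 calls were also lost with slide as a fixed term (adjusted p from 0.125 to 0.191), with array weights (0.138 to 0.754), with spike-in scaling (0.30) and in a fit to the 6 arrays alone (0.9996), and contig24978 was lost with scan day as a random block (0.148) or a fixed term (0.0996). With normexp background correction and the same constant of 50, contig21200 passed with a smaller difference of -1.43 (adjusted p = 0.0103), and contig24978 was lost with 0.89.

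The same 3 probes passed the test in all 8 nickel treatments of the series, each time in the direction seen in Ni-NPs EC20 at day 7. The 4 treatments of a day share their control arrays, so their values are given side by side and not as independent evidence. The probes called in the other comparisons with the control were 0.0487% of those tested for Ni-NPs EC20 and 0.231% for Ni-NPs EC50 at day 3, and 0.357% and 0.722% for NiNO3 EC20 and EC50 at day 3. At day 7 they were 0.195% for Ni-NPs EC50, 0.345% for NiNO3 EC20 and 1.34% for NiNO3 EC50. Within day 7, contig21200 fell by 2.09 on the log2 scale in Ni-NPs EC20, by 2.48 in Ni-NPs EC50, by 3.00 in NiNO3 EC20 and by 3.58 in NiNO3 EC50. GYUW2K402JE6WU was higher by 2.38 in Ni-NPs EC20, 3.17 in Ni-NPs EC50, 3.92 in NiNO3 EC20 and 3.94 in NiNO3 EC50, in every case against controls that were not well above background at day 7. Contig24978 was higher by 1.60, 2.45, 2.57 and 3.02 in the same order. For each of the 3 probes the difference from the control was thus the smallest in Ni-NPs EC20 among the treatments of day 7, and the direct comparisons with Ni-NPs EC50 and NiNO3 EC20 are given below.

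**Figure D2:**
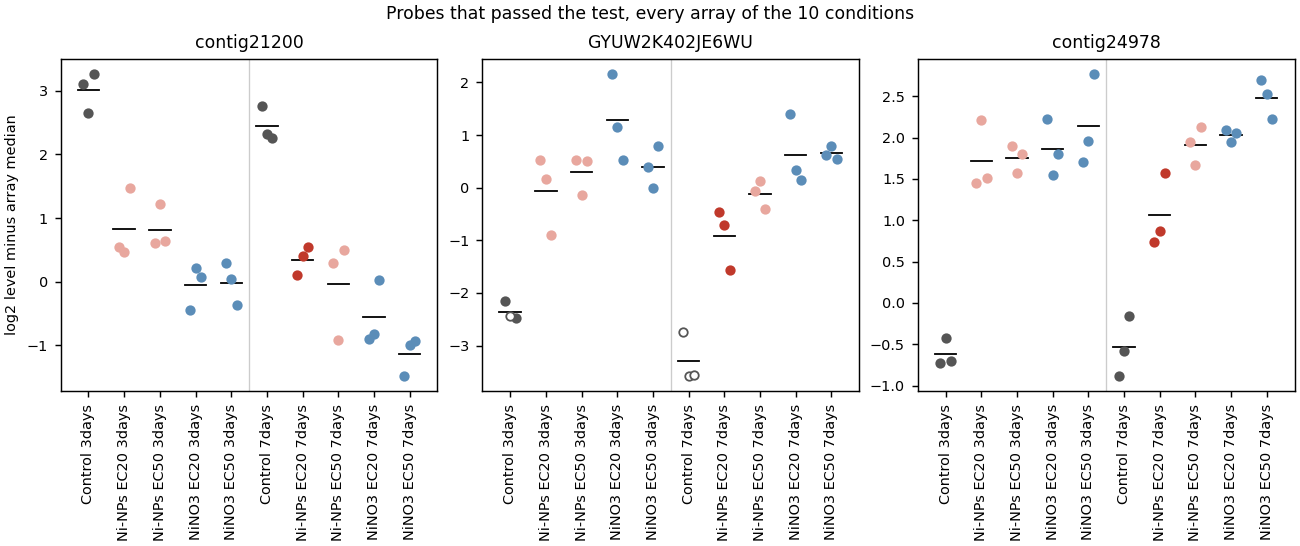
Level (log2 minus the array median, y axis) of the 3 called probes on every array of the 10 conditions (x axis); bars are means of 3 arrays, red marks Ni-NPs EC20 at day 7, open points are arrays where the probe was not well above background, and the vertical line divides day 3 from day 7. Contig21200 lies between 0.10 and 0.54 in the red arrays and at 2.25 or more in all control arrays.

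Arrays without overlap and well above background on all 6 arrays were found in 1371 probes (5.56% of those tested), contig21200 and contig24978 among them. The 10 higher and 10 lower ones of lowest p that did not pass are described next. Their adjusted p lay between 0.151 and 0.493, and the direction of all 20 was the same under every normalization tried.

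Among the 10 higher probes, contig20927 had the lowest p. Its treated arrays were at 0.98, 1.20 and 1.08 and its controls at -0.44, -0.17 and -0.19, a log2 difference of 1.35 (SE 0.26, adjusted p = 0.151). With scan day as a fixed term it passed, with a difference of 1.12 and an adjusted p of 0.0472. The arrays of each group lay close together, with an SD of 0.11 in the treated and 0.15 in the control arrays. Contig05082 had the largest difference of the 10, 1.42 (SE 0.28, adjusted p = 0.154), with treated arrays spread from 0.04 to 1.42 around a mean of 0.76 and controls between -0.71 and -0.58. Without treated replicate 2, its lowest treated array, contig05082 passed the test with a difference of 1.77 and an adjusted p of 0.00771. In the other 5 fits with 1 array left out it did not pass, with a difference as low as 1.08 and an adjusted p up to 0.661. Contig26981 had a mean level of 5.05 ± 0.62 in the treated arrays and 3.90 ± 0.22 in the controls (SD, n = 3 each). For contig19147 these means were 4.65 ± 0.55 and 3.31 ± 0.36. The smallest difference of the 10 was 0.77, in GYUW2K402J12N2.

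Among the 10 lower probes, contig07287 had levels of 7.21, 7.53 and 7.42 in the treated arrays. Its controls were at 8.32, 8.03 and 8.38, which makes a 1.81-fold lower level (log2 difference -0.86, SE 0.22, adjusted p = 0.440). Contig06668 had treated levels of 0.68, 0.53 and 0.41 against 1.70, 1.48 and 1.52 in the controls. The gap between the groups was wider than the spread within either, and the log2 difference was -1.02 (SE 0.24, adjusted p = 0.418). The largest difference of the 10 was that of GYUW2K402HFDWV, -1.57 (SE 0.40), whose arrays were also the most spread. Its treated levels were 0.77, -0.70 and -0.42, and its controls were at 2.08, 0.96 and 1.33. In 6 of the 10 lower probes (GYUW2K402HFDWV, GYUW2K402HNQM1, contig03557, contig13570, GYUW2K402I2N63 and GYUW2K402IMUBR) treated replicate 2 was the lowest treated array and replicate 1 the highest. The smallest of the 10 differences was -0.69, in GYUW2K401A7M3W.

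**Figure D3:**
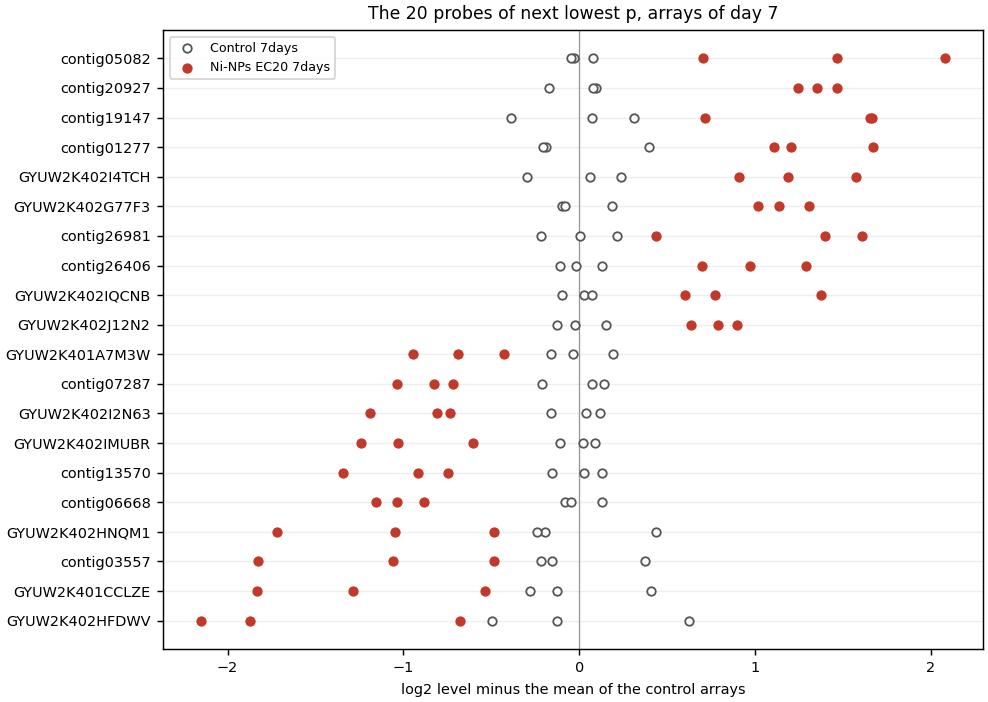
Levels of the 10 higher and 10 lower probes of next lowest p, as log2 level minus the mean of the 3 control arrays (x axis), with 1 row per probe; filled red points are Ni-NPs EC20 and open points control arrays of day 7. No probe has overlapping groups, which is how the 20 were chosen, and contig05082 and GYUW2K402HFDWV have the widest spread among the treated arrays.

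The 20 probes fell into those that also passed the test elsewhere in the nickel series and those that did not. Of the 10 higher ones, 6 passed in none of the 8 treatments: contig20927, contig26406, GYUW2K402G77F3, GYUW2K402IQCNB, contig26981 and GYUW2K402I4TCH. The other 4 passed in between 3 and 7 treatments, led by contig01277 and contig19147, which passed in every treatment other than Ni-NPs EC20 at day 7. Contig01277 was higher by 2.41 in Ni-NPs EC50, 2.75 in NiNO3 EC20 and 2.81 in NiNO3 EC50 at day 7, against 1.33 in Ni-NPs EC20. Of the 10 lower ones, 7 passed in none, contig06668 and contig07287 passed in 6 each and GYUW2K401A7M3W in 1. In Ni-NPs EC50 at day 7, contig06668 fell by 1.51 and contig07287 by 1.08 on the log2 scale, against differences of -1.02 and -0.86 in Ni-NPs EC20.

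The worms taken at day 3 had their own control and share no array with those of day 7. All 3 called probes passed at day 3 too, contig21200 with a log2 difference of -2.18, GYUW2K402JE6WU with 2.29 and contig24978 with 2.34. At day 3, 2 of the 3 control arrays of GYUW2K402JE6WU were well above background. Of the 10 next higher probes, 9 had the same sign at day 3 and 2 passed there (contig01277 with 2.24 and contig19147 with 2.65). In 5 of the 10 the arrays of day 3 lay above those of their control without overlap, as did 5.76% of all analysed probes. The median day 3 difference of the 10 was 0.38, compared with 1.19 at day 7. Of the 10 next lower probes, 10 had the same sign at day 3, and in all 10 the arrays of day 3 lay below those of their control without overlap, as did 8.53% of all analysed probes, although none passed. Their median difference was -0.68 at day 3 and -1.01 at day 7. The 20 probes were chosen for their values at day 7, so the smaller values at day 3 are a description and not a comparison of the days. Over the 1352 probes with an unadjusted p under 0.05 at day 7, the sign was the same at day 3 in 59.9%, against 54.0% of all analysed probes. Across all analysed probes, the log2 differences of the 2 days had a Pearson r of 0.18 and a Spearman rho of 0.14, as a description over genes, which are not independent replicates.

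The change of the response from day 3 to day 7 was tested as an interaction, (Ni-NPs EC20 minus control at day 7) minus the same at day 3. No probe passed in the limma fit (0%), and 1064 (4.32%) had an unadjusted p under 0.05, 795 with a higher (3.22%) and 269 with a lower difference at day 7 (1.09%). The higher ones were 74.7% of these with the median scaling, 64.1% after Quantile, 12.3% after MedianCD, 29.8% after SVCD and 28.2% with spike-in scaling, so the direction of the split rested on the scaling. The lowest adjusted p was 0.968. For contig24978 the difference was 0.74 smaller at day 7 (estimate -0.74, SE 0.39, 95% interval -1.54 to 0.06). For contig21200 the estimate was 0.08 (95% interval -0.91 to 1.08). The interval holds the shifts compatible with these arrays and is not a limit of detection, since the adjustment over all probes asks for more. For GYUW2K402JE6WU no estimate is given, since the controls were not well above background on any array of day 7 and on 1 array of day 3. The largest estimates among the named probes of day 7 were -1.30 for contig19147 (95% interval -2.18 to -0.43) and 1.18 for contig26981 (95% interval 0.41 to 1.95), neither past the adjusted threshold, and both were chosen for their values at day 7.

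**Figure D4:**
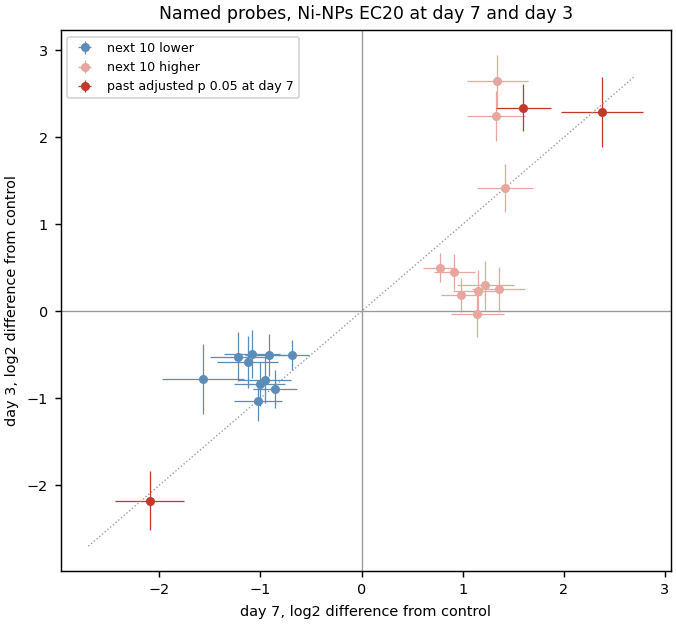
Log2 difference of Ni-NPs EC20 from the control at day 7 (x axis) and day 3 (y axis) for the 3 called and the 20 next probes; error bars are 1 SE of the limma fit and the dotted line marks equal differences. Contig21200 lies near the line at about -2.1 on both days, while 7 of the 10 next higher probes are between -0.03 and 0.50 at day 3.

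A higher dose of the same particles at the same day was compared directly, Ni-NPs EC50 minus Ni-NPs EC20, without use of the controls. No probe passed in the limma fit (0%, lowest adjusted p = 0.236), and 1446 probes (5.87%) had an unadjusted p under 0.05, 472 higher (1.91%) and 974 lower at EC50 (3.95%). The higher ones were 32.6% of these, and 45.4% after Quantile, 83.7% after MedianCD, 80.7% after SVCD and 5.79% with spike-in scaling. For contig21200 the difference was -0.39 (95% interval -1.09 to 0.32), for GYUW2K402JE6WU 0.80 (95% interval -0.04 to 1.63) and for contig24978 0.85 (95% interval 0.28 to 1.41, adjusted p = 0.652). The estimates of the 3 called probes thus pointed to a larger distance from the control at EC50, with none past the threshold. The next higher probes did not run one way. Contig01277 was 1.09 higher at EC50 (95% interval 0.49 to 1.68, adjusted p = 0.524), whereas contig20927 was 0.81 lower (estimate -0.81, 95% interval -1.35 to -0.28, adjusted p = 0.646). GYUW2K402G77F3 (-0.84), contig26406 (-0.64), contig26981 (-0.68) and GYUW2K402I4TCH (-0.75) also had lower levels at EC50 than at EC20, and none of them passed. These probes were chosen for high values in Ni-NPs EC20, which also enter this difference.

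The salt at its own EC20 and the same day was compared directly as NiNO3 EC20 minus Ni-NPs EC20. In this comparison 15 probes (0.0608%) passed in the limma fit, 5 higher in the salt (0.0203%) and 10 lower (0.0406%). The split was 11 higher and 7 lower with the 75th percentile as scale, 5 and 17 after MedianCD and 6 and 24 after SVCD. At an unadjusted p under 0.05 there were 1969 probes (7.99%), 626 higher (2.54%) and 1343 lower (5.45%). The higher ones were 31.8% of these, and 958 of 1917 with the 75th percentile, 21.2% after MedianCD and 13.4% with spike-in scaling. The 5 of lowest p were contig02388, GYUW2K402IQF2Y and contig11434, which were higher in the salt, and GYUW2K401CC9QC and GYUW2K402I9BJX, which were lower. In each of the 5 the Ni-NPs EC20 arrays stood nearer to the control than the salt arrays did. Contig11434 had a mean level of 6.33 ± 0.26 in the control, 6.76 ± 0.38 in Ni-NPs EC20 and 8.42 ± 0.43 in NiNO3 EC20 (SD, n = 3 each). The salt was 1.66 higher than the particles (SE 0.26, adjusted p = 0.0133). GYUW2K401CC9QC was at 0.73 ± 0.27 in the control, 0.68 ± 0.26 in Ni-NPs EC20 and -1.33 ± 0.29 in the salt, a difference of -2.01 (SE 0.34, adjusted p = 0.0213). GYUW2K402I9BJX had 1.78 ± 0.03, 1.58 ± 0.34 and -0.07 ± 0.32 in the same order, with a difference of -1.65 (SE 0.28, adjusted p = 0.0213). GYUW2K402IQF2Y was at -0.79 ± 0.12 in the control, -1.17 ± 0.13 in Ni-NPs EC20 and 0.38 ± 0.20 in the salt. The mean of the particles was below that of the control, but this difference of -0.38 did not pass (95% interval -0.85 to 0.09, adjusted p = 0.968). With spike-in scaling the difference was 0.14, of the other sign. The mean of the salt was above that of the control, and 1.56 higher than that of the particles (SE 0.23, adjusted p = 0.00674). Contig02388 was well above background in no control array, in 1 treated array of Ni-NPs EC20 and in all 3 of the salt, and its measured difference was 2.68 (adjusted p = 0.00674). With normexp background correction and the constant of 50 this difference was 0.71 (adjusted p = 0.171). In that fit GYUW2K402IQF2Y (0.59, adjusted p = 0.171), contig11434 (1.64, 0.522) and GYUW2K401CC9QC (-0.86, 0.425) did not pass either. GYUW2K402I9BJX did pass there (-1.02, 0.0413). With 1 array left out, contig02388 passed in all 6 fits, and each of the others was lost in 2 or 3 of the 6.

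In 3 of the 15, contig26406, contig03758 and contig12738, the mean of Ni-NPs EC20 lay farther from that of the control than the mean of the salt did; the last 2 were singled out after their values were seen. Contig03758 was at -1.05 in the control, -0.40 in Ni-NPs EC20 and -1.24 in the salt, and contig12738 at -0.48, 0.12 and -1.0 in the same order. For contig12738 the distances from the control were close, 0.60 in the particles and -0.52 in the salt. The treated arrays of contig26406 were at 2.92, 3.51 and 3.19 in Ni-NPs EC20 and its controls at 2.11, 2.35 and 2.20. In NiNO3 EC20 the mean level was 2.13, at the level of the controls, and 1.07 lower than in Ni-NPs EC20 (estimate -1.07, SE 0.20, adjusted p = 0.0324). The difference of contig26406 from the control in Ni-NPs EC20 did not itself pass (0.99, adjusted p = 0.181). Those of contig03758 (0.65) and contig12738 (0.60) did not pass either. For the 3 called probes, the salt minus particle estimates were -0.91 for contig21200, 1.54 for GYUW2K402JE6WU and 0.97 for contig24978, with adjusted p of 0.399, 0.175 and 0.230. The count of 15 depended on single arrays: without Ni-NPs EC20 replicate 2 it was 1 and without replicate 1 it was 37.

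The 3 Ni-NPs EC20 arrays of day 7 differed more from one another than the controls did. The median SD over probes was 0.43 in Ni-NPs EC20 and 0.32 in the control, the second widest of the 10 conditions. Among the treated arrays, 2137 probes (8.67%) had a range of more than 2 on the log2 scale, compared with 955 (3.87%) among the controls. The correlation over all probes between treated arrays was between 0.942 and 0.963, and that between controls between 0.964 and 0.979. Treated replicate 1 had a higher correlation with control replicate 1 (0.971) than with either of the other treated arrays. Treated replicate 3 was likewise closer to control replicate 2 (0.977) than to the other treated arrays. For treated replicate 2 the correlation was 0.969 and 0.968 with control replicates 2 and 3 and 0.949 with control replicate 1. With treated replicates 1 and 3 it was 0.958 and 0.963.

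Among the probes with a range of more than 2, the array farthest from the middle one was treated replicate 1 in 977, replicate 2 in 198 and replicate 3 in 962. A small part of the probes with a wide range moved as a block. These sets were chosen after their values were seen and are given with no test. In 100 probes, 35 named for contigs and 65 for single reads, both treated replicates 2 and 3 were more than 3 log2 units above replicate 1, whereas only 1 probe split off replicate 2 and 20 split off replicate 3 in that way. In 31 further probes replicates 2 and 3 were both more than 3 below replicate 1, against 9 such probes for replicate 2 and 18 for replicate 3. The median level of the 100 probes was 0.10 in treated replicate 1, 4.01 in replicate 2 and 4.39 in replicate 3. In the controls it was 0.00, 1.81 and 1.52, and control replicate 1 was the lowest control in 98 of the 100. GYUW2K401BUWLS is an example, at 1.35, 6.38 and 6.46 in the treated arrays and 0.95, 2.85 and 2.45 in the controls. Its mean difference of 2.65 had an SE of 1.35 and an unadjusted p of 0.062. The median difference of the 100 probes from the control was 2.04, and none passed (lowest adjusted p 0.800). The difference was positive in 87 of the 100 and at least 1 in 82, and its lowest value was -2.73. The choice of the probes favours positive differences, since it asks for treated replicates 2 and 3 far above replicate 1.

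The median level of the 100 probes was between -0.80 and 1.81 on the 22 arrays of the first scan day and between 1.45 and 4.39 on the 8 arrays of the other days. Treated replicates 1, 2 and 3, which set the choice of the probes, are among these arrays, and replicates 2 and 3 hold the upper end. Without them, the second scan day ran from 1.67 to 3.45 and the third from 1.45 to 3.49. These ranges overlapped the first scan day, where control replicates 2 and 3 of day 7 were at 1.81 and 1.52. The 31 probes that moved the other way had a median of 2.36 in treated replicate 1, -1.81 in replicate 2 and -1.69 in replicate 3, with 0.03 to 2.81 on the first scan day and -1.81 to 0.64 on the others. Without treated replicates 2 and 3, which set this choice too, the later scan days ran from -1.18 to 0.64. Within the first scan day, a comparison added after the data were seen, 1 treated array stands against the 3 controls, with the spread taken from the replicated groups and the lone array assumed to vary like them. The differences there were -2.34 for contig21200 (adjusted p = 0.0462), 2.83 for GYUW2K402JE6WU (adjusted p = 0.0532) and 1.28 for contig24978 (adjusted p = 0.117). With scan day as a term in the fit, contig24978 had a difference of 1.32 and an adjusted p of 0.0996, and the other 2 probes passed. The part of scan day in the spread among the treated arrays was not tested.

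**Figure D5:**
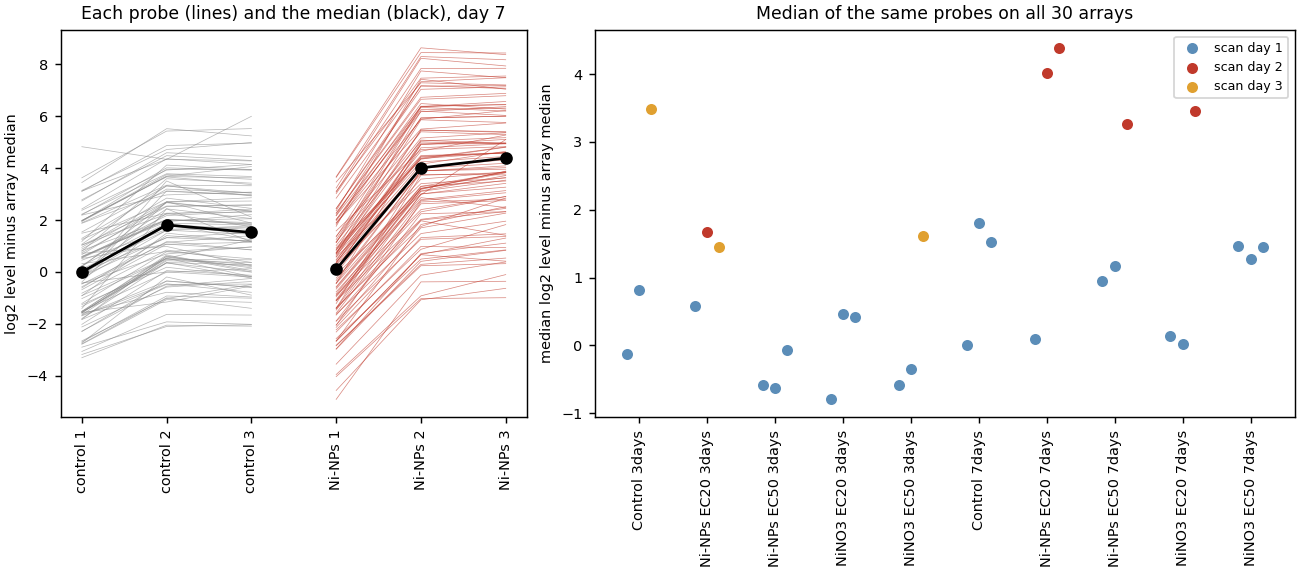
Left, levels (log2 minus the array median) of the 100 probes on which treated replicates 2 and 3 were both more than 3 above replicate 1, as 1 line per probe with the median in black, on the 6 arrays of day 7. Right, the median of the same probes on all 30 arrays, coloured by scan day; the medians of treated replicates 2 and 3, at 4.01 and 4.39, are the highest of the series, which the choice of the probes favours, and control replicate 1 is at 0.00.

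Single probes could swing far more. GYUW2K401CVQAV, the probe of widest range among the treated arrays, was at 6.91, 10.07 and -0.85 in Ni-NPs EC20 and at 0.07, 5.67 and 6.66 in the controls. GYUW2K401EIO4R had the opposite pattern, 0.41, -1.67 and 8.49 in Ni-NPs EC20 and 10.91, 0.32 and -0.02 in the controls. In both probes treated replicate 3 and control replicate 1 stood together against the remaining 4 arrays, so the swing did not follow the treatment. In the probes with the largest rise and the largest fall of all in the mean, treated replicate 3 stood with the controls against the other treated arrays. GYUW2K402HLWR3 had the largest rise in the mean, 3.1 (SE 1.22, adjusted p = 0.801), from treated levels of 3.53, 5.54 and -0.80 against controls between -0.68 and 0.06. GYUW2K401ERK7U had the lowest value, -3.42 (SE 1.36, adjusted p = 0.805), with treated arrays at -2.94, -2.81 and 2.29 and controls between 1.48 and 3.58.

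The share of probes with an unadjusted p under 0.05 changed little with brightness. From the dimmest to the brightest of 4 groups of equal size it was 5.06%, 4.92%, 6.77% and 5.19%. In the brightest group 249 of 320 such probes were higher in Ni-NPs EC20, and in the dimmest 183 of 312. The median SD among the treated arrays fell from 0.66 in the dimmest to 0.31 in the brightest group, and that of the controls from 0.48 to 0.20. By name, 4.78% of contig probes and 6.21% of single-read probes had an unadjusted p under 0.05.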

How the data were processed

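Total RNA of each pool was amplified, labelled with a single dye (Cy3) and hybridized to its own Agilent array, with spike-in transcripts added. The authors read out the scans with Agilent Feature Extraction 10.7.3.1, and the deposited values are spot intensities after its background correction, linear and without any normalization between arrays, with flags for signal quality. A deposited summary table holds the same intensities, within 0.0072 on the log2 scale. Each array's condition was taken from its label.

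Gene probes were kept when the software marked their signal as positive and significant on each of the 30 arrays. Their log2 intensity was scaled by subtracting the array median, one of the normalizations of the study. Differences were tested with limma 3.58.1 in R 4.3.3, in 1 linear model of all 30 arrays with a coefficient for each condition, with p-values adjusted by the Benjamini-Hochberg method per comparison and a threshold of 0.05. The fit was tested on simulated arrays with known changes. Array-level values were compared with exact permutation tests. Depth is set by the number of arrays, 3 per group.

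The probes named were all those past the threshold, the 10 higher and 10 lower ones of next lowest p (no overlap between groups, unsaturated and well above background on all 6 arrays), up to 5 of lowest p past the threshold in the other comparisons, and, outside the analysed probes, up to 5 per direction detected in only 1 group. The comparison, this rule and the gene lists were chosen with earlier results of these data known. The lists need gene names and were not run. The alternatives were other normalizations, background correction, filters, tests, array weights, slide and scan day, the replicate number as a block, and leaving out each array. Slide and scan day were read from the file headers.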

Additional observations from a re-analysis of the deposited data

Results flagged for a closer look

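The probes outside the analysed set were looked at for signal in 1 group only, as a description without a test. Of the 43750 gene probes, 51 that were not analysed (0.117%) were well above background on all 3 Ni-NPs EC20 arrays of day 7 and on no control array. In the controls and on no treated array 1 was so (0.00229%). Treated replicate 2 also had the largest share of probes well above background of the 6 arrays, 68.9%, and the part of this in the count was not tested. The bound of the fold is one on the group means and makes no allowance for the spread of the arrays. It was above 1 on the log2 scale in 6 of the 51. The first was contig21620, with a bound of 3.28-fold and levels of -1.04, -1.36 and -0.64 in the treated arrays. For contig02282 the bound on the group means was 3.12-fold and rested on treated replicate 2 alone. Its treated levels were -2.24, 1.71 and -2.73 in replicates 1, 2 and 3, and its controls were at -2.63, -3.56 and -4.44. Treated replicate 3 was thus below control replicate 1, and the groups overlapped. The bounds were 2.23-fold for contig10757, 2.16-fold for contig14649 and 2.07-fold for GYUW2K402HLGH0. In the other direction, GYUW2K401DTEDO was lower in Ni-NPs EC20, with a bound of 1.84-fold.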

How the results depend on the processing

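Among the alternatives, the comparison of Ni-NPs EC20 with the control at day 7 gave the same 3 probes under Quantile and MedianCD normalization, the summary table, outlier flags left out, trended and robust variances and slide as a random block. It gave 2 probes, both among the 3, under SVCD normalization, with only probes well above background on all arrays and with scan day as a random block. With no filter on dim probes it gave 2, of which 1 is among the 3 (contig21200 then had an adjusted p of 0.428 and contig24978 of 0.578). A version of normexp on the median signal was added after seeing the data, since the planned one called for the mean signal, which the data at hand lacked. With it, at a constant of 50, the count was 1, and it was also 1 with the 75th percentile as scale. It was 0 with scaling to the spike-in transcripts (which moved the median difference of all probes from -0.0021 to 0.52), with probes filtered on the 6 arrays only, with only the arrays of the groups compared (581 at an unadjusted p under 0.05), with the methods' t-test (760 unadjusted) and with array weights. It was 7 with slide as a fixed term (0 of them among the 3), 5 with scan day as a fixed term (2 among the 3) and 25 within the first scan day (1 among the 3, added after seeing the data). Leaving out 1 array gave between 0 and 4 probes, and the 4 without treated replicate 2 hold none of the 3. The causes were not tested. Of the 80 values of the 3 called probes, 47 were not past the threshold and none changed sign.

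Ni-NPs EC50 against EC20 had 1 probe with SVCD normalization, 1 with slide as a fixed term, 2 and 5 with scan day as a random block and as a fixed term, 6 within the first scan day, and 0 to 1 with an array left out. The interaction with day had 0 in every fit run. For NiNO3 EC20 against Ni-NPs EC20 the count of 15 became 30 with SVCD normalization, 31 with probes well above background on all arrays, 26 with trended and robust variances, 36 and 67 with scan day as a random block and as a fixed term, and 6 with slide as a fixed term. It was 4 within the first scan day, 1 with normexp, 1 with no filter, and 0 with spike-in scaling, only the arrays compared, the t-test and array weights. Leaving out 1 array gave between 1 and 37. MedianCD and SVCD moved the median difference of all probes from -0.044 to 0.12 for EC50 against EC20 and from 0.059 to -0.18 and -0.12 for the interaction, and spike-in scaling moved it to -0.30, -0.21 and -0.18 for EC50, the interaction and NiNO3.

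The arrays share replicate numbers, but the correlation of the deviations of same-numbered arrays was 0.39, -0.02 and 0.00, so they were not treated as pairs, and only replicates 1 correlated best with their own number. With the replicate block, the counts were 7 against the control (the 3 among them, and contig20927, contig05082 and contig26406 at adjusted p of 0.0405, 0.0473 and 0.0473), 27 for NiNO3 and 0 for the other comparisons.

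GYUW2K401CC9QC had a difference of -0.05 from the control in Ni-NPs EC20, and took the other sign with MedianCD (0.015) and SVCD (0.023) normalization, normexp (0.025), array weights (0.015) and spike-in scaling (0.46), and between 0.066 and 0.083 without treated replicate 3 or control replicate 2. With spike-in scaling, GYUW2K402IQF2Y was at 0.14 and GYUW2K402I9BJX at 0.33, against -0.38 and -0.19.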
